A study of Trametes versicolor with 12 samples.

Results

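CCP1 is the gene model of Trametes versicolor that carries protein number 26601 in the deposited files and the symbol CCP1, for cytochrome c peroxidase, in the RefSeq gene table, and it is 1 of 14296 gene models measured. Its values were read by that number. Trametes versicolor is a wood-decaying basidiomycete of the white-rot type. Mycelium of strains BRFM1218 and 1956-1252, the latter from the NIBIO collection, was grown on agar with 4% malt and harvested at 2 or at 4 weeks, which gives 4 groups with 3 libraries in each, all on the same medium. Each library came from its own culture, per the labels, and each strain is a single isolate, so a strain difference concerns these isolates.

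Cytochrome c peroxidase, best known from the yeast Saccharomyces cerevisiae, is a haem enzyme of the mitochondrial intermembrane space that reduces hydrogen peroxide to water with electrons from cytochrome c. It belongs to class I of the haem peroxidases, the intracellular class. In white-rot fungi the better known relatives are the secreted class II peroxidases, which act on lignin: lignin peroxidases (LiP), manganese peroxidases (MnP) and versatile peroxidases (VP). Dye-decolorizing peroxidases (DyP) and haem-thiolate peroxidases (HTP) are other haem peroxidase families, and laccases (TvLac) are copper oxidases of phenols.

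Reads assigned to genes ranged from 31763162 to 74647672 per library. All 12 libraries read CCP1 deeply, with 3173 to 10558 reads each. Of 72347 CCP1 reads in all, 4 did not align uniquely, spread over 4 libraries with 1 read each, so the count of unique reads and the count of all reads were nearly equal. The span of CCP1 in the RefSeq table did not overlap that of the 3 models on either side. Levels are given as RPKM, read counts scaled to library size and to model length, as the authors deposited them. They are also given as CPM, counts scaled by library size alone and then between libraries by trimmed means of M values (TMM).

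CCP1 was most abundant in young BRFM1218 mycelium, intermediate in old BRFM1218 mycelium and lowest in 1956-1252 at both ages. In BRFM1218 at 2 weeks the 3 libraries stood at 180.4, 185.9 and 188.5 RPKM (184.9 ± 4.12, mean ± SD, n = 3). In BRFM1218 at 4 weeks they stood at 87.1, 88.9 and 98.4 RPKM (91.5 ± 6.05, n = 3). These groups did not overlap: the lowest young library was far above the highest old one. In 1956-1252 the libraries stood at 37.3, 40.5 and 41.2 RPKM at 2 weeks (39.7 ± 2.08, n = 3). At 4 weeks they stood at 39.4, 40.2 and 40.7 RPKM (40.1 ± 0.664, n = 3). The ages of 1956-1252 overlapped, with the old libraries inside the range of the young ones, and every 1956-1252 library was below every BRFM1218 library. In the order of the 4 group means only this last pair of neighbours was not separated by the spread between libraries. In a bulk extract of mycelium, fewer cells that express a gene and less of its RNA per cell cannot be told apart.

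**Figure D1:**
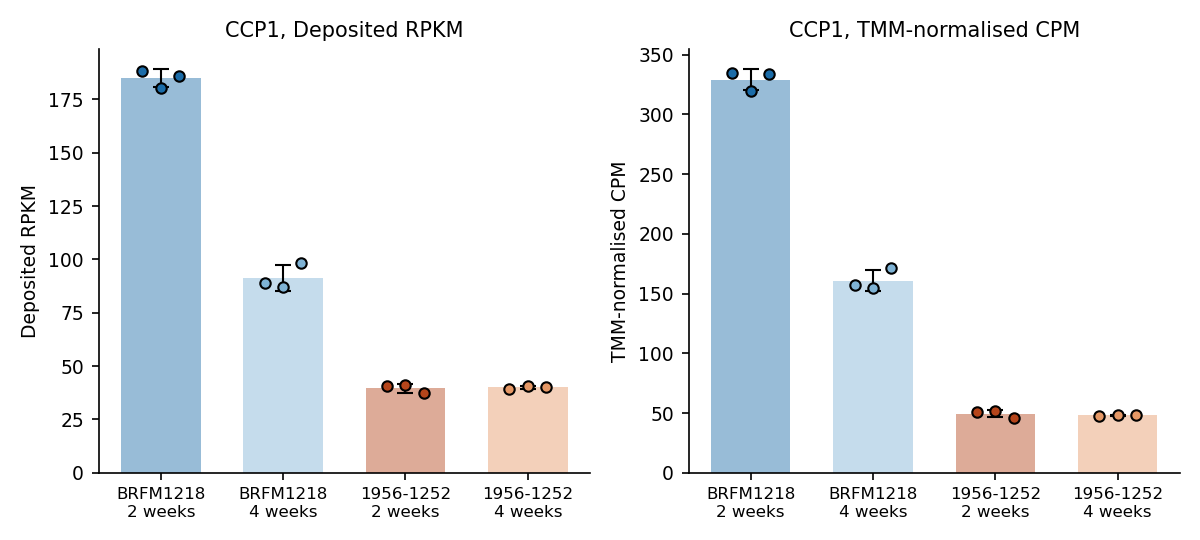
CCP1 in each of the 12 libraries (points) by strain and culture age, with the group mean (bar) and SD (error bar, n = 3), as deposited RPKM (left) and as TMM-normalised CPM (right). BRFM1218 falls from 184.9 to 91.5 RPKM, and 1956-1252 stays near 40 RPKM, at 39.7 and 40.1.

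Counting error was small beside these differences. In BRFM1218 at 4 weeks the library with 98.4 RPKM had an exact Poisson 95% interval of 95.6 to 101.2, above those of the other libraries of its group, which ran from 85.2 to 90.9 at their outer ends. That library was also the shallowest of its group, with 34004441 reads. In 1956-1252 at 2 weeks the library with 37.3 RPKM had an interval of 36.0 to 38.6, below those of its group, which began at 39.2. These intervals cover counting error only, and culture and library preparation cannot be told apart in the remaining spread. The fitted coefficient of biological variation was 4.66% for CCP1, against a common value of 8.27% over the 12648 tested models.

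Within a library, the place of CCP1 among all 14296 models by RPKM moved with its level. It ranked 827 to 858 in BRFM1218 at 2 weeks and 1604 to 1747 in BRFM1218 at 4 weeks. In 1956-1252 it ranked 3525 to 3830 at 2 weeks and 3692 to 3782 at 4 weeks. CCP1 thus lay 5.78 to 6.0% from the top in young BRFM1218 libraries and at 24.7 to 26.8% from the top in 1956-1252.

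In BRFM1218 CCP1 was lower at 4 than at 2 weeks. Its level fell from 319.3, 333.7 and 334.5 CPM at 2 weeks (329.2 ± 8.56) to 154.3, 157.3 and 171.1 CPM at 4 weeks (160.9 ± 8.95, n = 3 per group). The log2 fold change was -1.03 (SE 0.05, 95% interval -1.14 to -0.93), a 2.05-fold fall, with an adjusted p of 1.93e-11 in edgeR's quasi-likelihood test. Changes with age were common in this strain: 27.4% of tested models were lower and 33% higher at an adjusted p under 0.05. The fall of CCP1 was deeper than most, since 7.23% of tested models had a lower log2 fold change, and the median of all of them was 0.06. An exact two-sided permutation test on log2 CPM gave p = 0.1, the smallest that 3 libraries against 3 allow.

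In 1956-1252 no change of CCP1 with age was detected. Its level was 46.2, 50.5 and 51.4 CPM at 2 weeks (49.4 ± 2.77) and 47.6, 48.3 and 48.7 CPM at 4 weeks (48.2 ± 0.568, n = 3 per group). The log2 difference of -0.04 (SE 0.05, edgeR adjusted p = 0.6) had a 95% interval of -0.15 to 0.07, so the interval left out a fall of the size measured in BRFM1218. It turned to 0.02 with library size only, also without passing. Of the tested models, 48.6% passed in this comparison and 92.7% had a larger change in either direction than CCP1. The exact permutation test gave p = 0.5.

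The age change of CCP1 differed between the strains in the test of the difference itself. The interaction, taken as the log2 change in 1956-1252 less the log2 change in BRFM1218, was 0.997 (SE 0.07, 95% interval 0.84 to 1.15, adjusted p = 4.44e-09 in edgeR). Of the tested models 52.9% passed this test, 25.6% in the direction of CCP1. CCP1 lay above 88.4% of them, whose median interaction was -0.03.

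At both ages CCP1 was lower in 1956-1252 than in BRFM1218, by more at 2 weeks. At 2 weeks the log2 difference was -2.74 (SE 0.05, adjusted p = 7.43e-18 in edgeR), which is 6.66-fold lower. At 4 weeks it was -1.74 (SE 0.05, adjusted p = 2.46e-15 in edgeR), or 3.34-fold lower. Strain differences were the rule: 40.4% of tested models were lower in 1956-1252 at 2 weeks and 40.6% at 4 weeks, and 5.61% and 12.3% had a lower log2 difference than CCP1. The libraries of the strains did not overlap at either age, and the exact permutation test gave p = 0.1 at each age.

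The size of the strain difference depended on the scaling of the libraries, and its direction did not. With library size only, CCP1 was 4.66-fold lower at 2 weeks and 2.28-fold lower at 4 weeks in 1956-1252. The median log2 strain difference of all tested models moved with the scaling as well, from 0.09 with TMM to 0.60 with library size only at 2 weeks, and from 0.11 to 0.66 at 4 weeks. Relative to that median CCP1 stood at -2.82 at 2 weeks and -1.84 at 4 weeks with TMM. A scaling factor moves all models by about the same amount, so this relative value is fixed across scalings by construction and does not bear on which size is right. The share of called models that were higher in 1956-1252 went from 52.4 to 67.9% at 2 weeks and from 52.6 to 68.8% at 4 weeks. Models with no reads numbered 1561 to 1971 per BRFM1218 library and 1123 to 1205 per 1956-1252 library. The sources used here do not say which strain the reads were aligned to, and the part of read alignment in the strain differences was not tested.

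**Figure D2:**
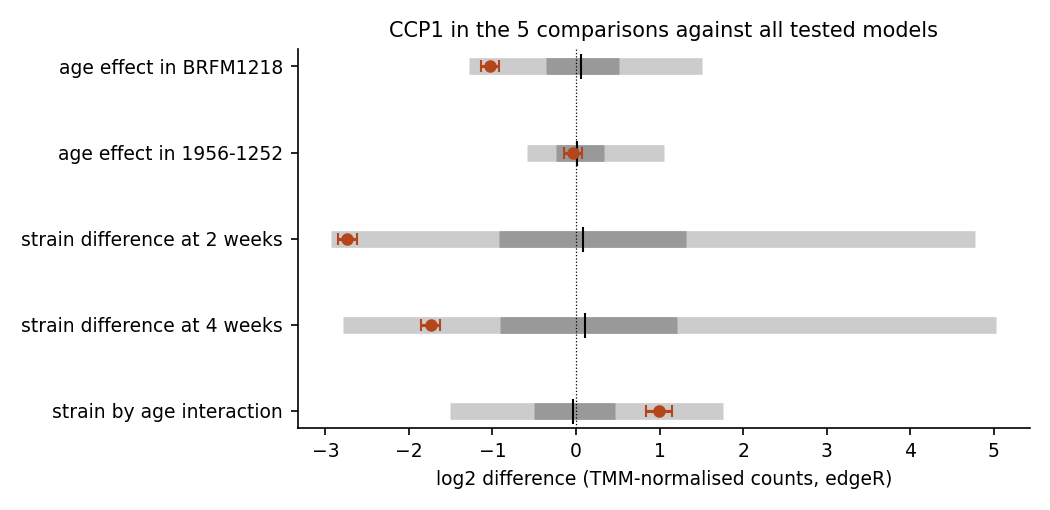
Log2 difference of CCP1 (points, with 95% intervals) in the 5 comparisons, beside all 12648 tested models (light bar, 5th to 95th percentile, dark bar, quartiles, tick, median). CCP1 lies below the lower quartile for age in BRFM1218 and for both strain differences, above the upper quartile for the interaction, and near the median for age in 1956-1252.

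Among the 42 models with a symbol, the others being peroxidases, LDO genes, laccases and multicopper oxidases, CCP1 was among the most abundant per length. In every BRFM1218 library it was rank 2 by RPKM, behind DyP1, which averaged 1198 RPKM at 2 weeks and 437 RPKM at 4 weeks. In 1956-1252 it was rank 4 or 5 at 2 weeks and rank 8 in every library at 4 weeks. By group means, the genes above it at 2 weeks were LDO2 and LDO1, named for linoleate diol synthase-type haem enzymes, HTP1 and MnP1s. MnP1s, at 43.6 ± 7.79 RPKM there, was not separated from CCP1 by the spread between libraries. At 4 weeks DyP2, HTP3 and DyP1 stood above it too. CCP1 was level in this strain (39.7 and 40.1 RPKM), while HTP1 went from 112.0 to 289.4 RPKM and LDO2 from 113.6 to 212.4 RPKM.

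**Figure D3:**
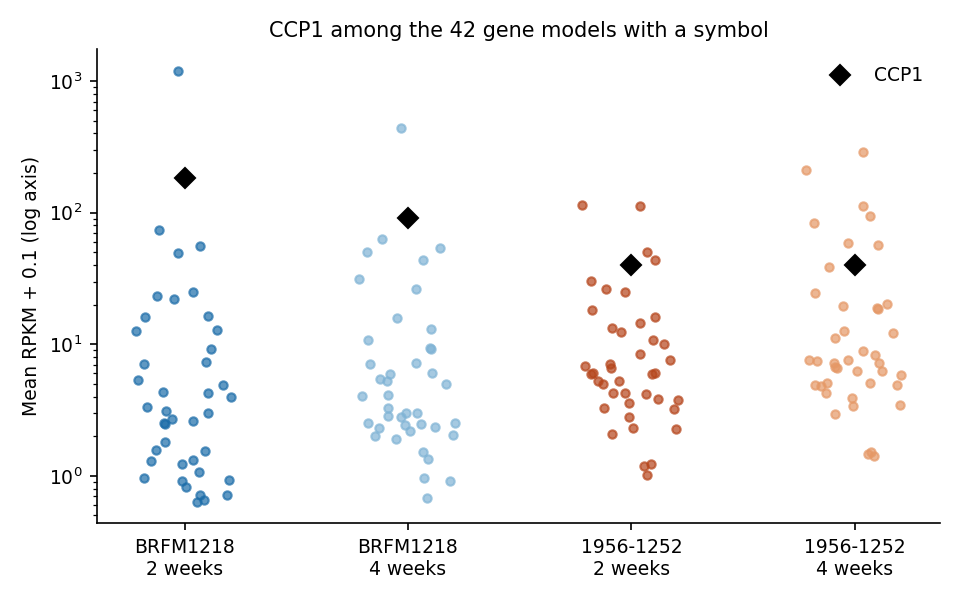
Mean RPKM (3 libraries, log axis, 0.1 added) of the 42 models with a symbol in each group, with CCP1 as a black diamond and the other models as circles. CCP1 is second only to DyP1 in BRFM1218 and has 7 models above it in 1956-1252 at 4 weeks.

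The summed RPKM of the 26 class II peroxidases did not follow CCP1. In BRFM1218 the sum was 170.9 ± 3.85 RPKM at 2 weeks and 177.2 ± 14.0 RPKM at 4 weeks (n = 3 each), with ranges that overlapped. In 1956-1252 it was 220.3 ± 21.6 RPKM at 2 weeks and 282.7 ± 12.04 RPKM at 4 weeks, with ranges that did not. The ratio of this sum to CCP1 was 0.924 ± 0.0268 in BRFM1218 at 2 weeks, 1.95 ± 0.272 in BRFM1218 at 4 weeks, 5.55 ± 0.262 in 1956-1252 at 2 weeks and 7.05 ± 0.254 in 1956-1252 at 4 weeks. CCP1 alone thus stood above the summed class II family in RPKM in every young BRFM1218 library, and was at 14.2% of it in old 1956-1252 mycelium. For the 8 laccases and multicopper oxidases the ratio of the sum to CCP1 ran from 0.339 ± 0.0666 in BRFM1218 at 4 weeks to 1.49 ± 0.0506 in 1956-1252 at 4 weeks. For the 5 dye-decolorizing and haem-thiolate peroxidases it was 6.73 ± 0.186 and 6.27 ± 0.705 in BRFM1218 at 2 and 4 weeks, with a difference between ages below the SD at 4 weeks and above that at 2 weeks, and 4.84 ± 0.299 and 14.1 ± 0.169 in 1956-1252.

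In ageing BRFM1218, where CCP1 fell, 4 class II peroxidase genes and the dye-decolorizing peroxidase gene DyP1 fell too. So did 5 laccases and multicopper oxidases and LDO1. Of 26 class II peroxidases 13 were higher with age, 9 did not pass and 4 were lower, beside 33% higher and 27.4% lower over all tested models. Their median log2 fold change was 0.61, against 0.06 over all tested models. The 4 class II genes that fell were the versatile peroxidase genes VP3at (-0.60, SE 0.09, edgeR adjusted p = 3.43e-05) and VP2 (-0.26, SE 0.06, adjusted p = 0.000933) and the manganese peroxidase genes MnP10s (-0.47, SE 0.16, adjusted p = 0.0146) and MnP1s (-0.34, SE 0.13, adjusted p = 0.0293). Each of these falls was smaller than that of CCP1. The call for MnP10s ended without BRFM1218 4-week replicate 3 (-0.36, edgeR adjusted p = 0.0564). The call for MnP1s was lost on leaving out replicate 1 or 3 of BRFM1218 at 2 weeks (edgeR adjusted p = 0.0856 and 0.0843) or replicate 1 or 3 at 4 weeks (0.096 and 0.0888). Of the 8 laccases and multicopper oxidases 5 were lower and 2 higher, with a median of -0.54. Of the 5 dye-decolorizing and haem-thiolate peroxidases 1 was lower and 3 higher, with a median of 1.20. The lower one was DyP1, whose fall was deeper than that of CCP1 (-1.47, SE 0.05, adjusted p = 2.93e-13 in edgeR).

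In 1956-1252, where CCP1 was level, no member of these lists was lower with age at an adjusted p under 0.05 in edgeR, DESeq2 or limma, and 0 were lower at an unadjusted p under 0.05 in edgeR. Of the class II peroxidases 6 were higher (median 0.25), of the dye-decolorizing and haem-thiolate peroxidases 5 (median 1.32), of the laccases and multicopper oxidases 6 (median 0.62), and both LDO genes (median 0.85), beside 25.1% higher and 23.4% lower over all tested models, whose median was 0.01. By the edgeR calls no other model with a symbol had the same result as CCP1 in all 5 comparisons (lower with age in BRFM1218, not passed with age in 1956-1252, lower in 1956-1252 at both ages, a positive interaction). DyP1, MnP10s, TvLac2 and VP2 shared 4 of the 5. MnP10s missed on the interaction (0.44, edgeR adjusted p = 0.105), which passed without BRFM1218 4-week replicate 2 (0.55, adjusted p = 0.0409). The strain difference at 4 weeks did not pass for TvLac2 with library size only (-0.11, edgeR adjusted p = 0.396) or in limma on log2(RPKM + 1) (-0.08, adjusted p = 0.488), nor for MnP10s in limma on log2(RPKM + 1) (-0.30, adjusted p = 0.0774). Over all tested models, 381 others shared all 5, which is 3.01%.

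Genes with a pattern like that of CCP1 were sought by the root mean square difference in log2(CPM + 0.5) over the 12 libraries, each gene centred on its own mean, among 8307 models with a mean of at least 10 CPM. The median distance from CCP1 was 1.14, and 57 models lay within 0.25. The 5 closest were TRAVEDRAFT_26407 at 0.096, TRAVEDRAFT_145635 at 0.097, TRAVEDRAFT_147690 at 0.12, TRAVEDRAFT_126149 at 0.12 and TRAVEDRAFT_156250 at 0.12. The gene table gives them no name. Since closeness in these libraries chose them, their values are a description. TRAVEDRAFT_26407 went from 254.5 ± 10.2 to 113.6 ± 6.45 CPM with age in BRFM1218 and from 37.7 ± 2.06 to 32.9 ± 0.960 CPM in 1956-1252. TRAVEDRAFT_126149 went from 222.0 ± 1.98 to 123.5 ± 8.29 CPM and from 37.7 ± 0.824 to 37.2 ± 2.13 CPM. TRAVEDRAFT_156250 went from 782.1 ± 28.5 to 451.2 ± 33.8 CPM and from 126.7 ± 2.34 to 110.7 ± 3.13 CPM. With age in 1956-1252 TRAVEDRAFT_26407 and TRAVEDRAFT_156250 each had a log2 difference of -0.19 (95% intervals -0.32 to -0.07 and -0.30 to -0.09), called lower in edgeR. That of CCP1 was -0.04 (-0.15 to 0.07) and was not called. Both intervals overlap that of CCP1, and the difference between models was not tested. The call for TRAVEDRAFT_26407 was lost with library size only (-0.14, edgeR adjusted p = 0.0578) and in limma on log2(RPKM + 1) (-0.14, adjusted p = 0.0569) and log2(RPKM + 0.1) (-0.14, adjusted p = 0.059). TRAVEDRAFT_145635, TRAVEDRAFT_147690 and TRAVEDRAFT_126149 were not called (edgeR adjusted p = 0.171, 0.322 and 0.789). The likeness was not complete: the interaction of TRAVEDRAFT_156250 was 0.60 (95% interval 0.45 to 0.75), smaller than the 0.997 of CCP1. Of the 5, TRAVEDRAFT_26407 is on the same scaffold as CCP1, as inferred from positions in the gene table, with 385 models between them. That scaffold holds 8.92% of all models of the table.

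The closest models with a symbol were far behind these. VP2, a versatile peroxidase gene, had a distance of 0.45 and rank 418, TvLac2, a laccase gene, 0.48 and rank 505, and MnP10s 0.63 and rank 1167. VP2 was at 123.1 ± 2.41 and 103.0 ± 2.76 CPM in BRFM1218 at 2 and 4 weeks and at 30.4 ± 2.16 and 43.1 ± 1.57 CPM in 1956-1252. It thus had the strain order of CCP1 with a shallower fall in BRFM1218, and was higher at 4 than at 2 weeks in 1956-1252. TvLac2 was at 47.0 ± 0.758 and 10.7 ± 1.86 CPM in BRFM1218 and at 4.52 ± 0.285 and 6.81 ± 0.880 CPM in 1956-1252, a steeper fall than that of CCP1 in the first strain and a higher value at 4 weeks in the second.

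**Figure D4:**
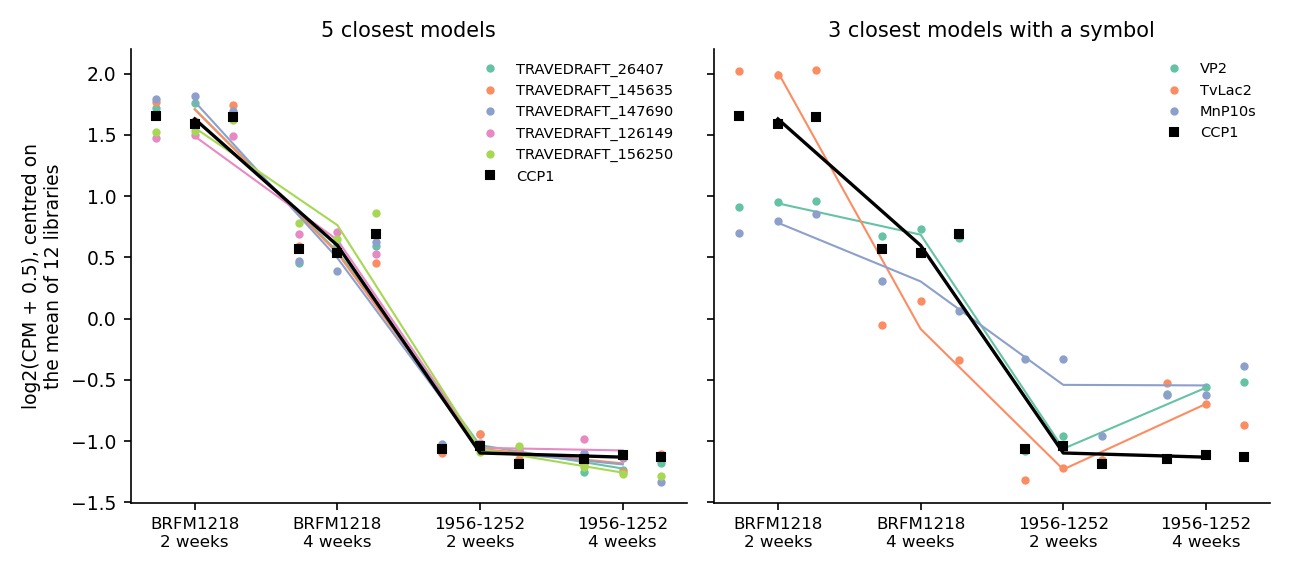
Log2(CPM + 0.5) of each library (points) centred on the gene's mean over 12 libraries, with lines through the group means, for CCP1 (black) and the 5 closest models (left) or the 3 closest models with a symbol (right). The 5 closest models, chosen for closeness, lie at distances of 0.096 to 0.12 from CCP1, and VP2, TvLac2 and MnP10s depart from it by 0.45 to 0.63.

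Of the 3 models on either side in the gene table, 5 were higher and 1 lower with age in BRFM1218, where 33% of all tested models were higher and 27.4% lower. TRAVEDRAFT_88199, next to CCP1 on the side of lower position, went from 32.3 ± 2.35 to 40.5 ± 7.29 CPM (0.33, SE 0.12, edgeR adjusted p = 0.0266). TRAVEDRAFT_113328, next to it on the other side, rose from 85.3 ± 5.06 to 106.3 ± 3.46 CPM (0.32, SE 0.06, edgeR adjusted p = 0.000125). The model that fell was TRAVEDRAFT_34426, from 192.9 ± 7.93 to 144.6 ± 11.97 CPM (-0.42, SE 0.07, edgeR adjusted p = 8.21e-05), less deeply than CCP1. The call for TRAVEDRAFT_88199 ended on leaving out replicate 1 or 2 of BRFM1218 at 2 weeks (0.28 and 0.31, edgeR adjusted p = 0.0958 and 0.0749), replicate 2 of BRFM1218 at 4 weeks (0.16, adjusted p = 0.209) or replicate 3 of 1956-1252 at 4 weeks (0.28, adjusted p = 0.0582).

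TRAVEDRAFT_88199 had the strain order of CCP1: in 1956-1252 it was at 9.38 ± 0.963 CPM at 2 weeks and 9.54 ± 1.02 CPM at 4 weeks, 3.44-fold and 4.25-fold lower than in BRFM1218 (adjusted p = 3.82e-10 and 4.02e-11 in edgeR). TRAVEDRAFT_56322 and TRAVEDRAFT_43554, the next models on that side, were higher in 1956-1252, by 2.18-fold and 3.44-fold at 2 weeks (adjusted p = 1.67e-11 and 1.08e-09 in edgeR), where 44.4% of all tested models were higher. On the other side TRAVEDRAFT_113328 and TRAVEDRAFT_34426 were lower in 1956-1252, by -0.74 and -0.73 at 2 weeks and -0.38 and -0.61 at 4 weeks (log2). With library size only these 4-week values were 0.17, called higher (edgeR adjusted p = 0.0107), and -0.06, not called (adjusted p = 0.457). With TMM, 3 of the 6 neighbours were lower at 2 weeks and 4 at 4 weeks, beside 40.4% and 40.6% of all tested models. The count at 4 weeks depended on the scaling. TRAVEDRAFT_141987, also lower there with TMM, was at 0.12 with library size only (edgeR adjusted p = 0.0572). TRAVEDRAFT_88199 kept its call at 4 weeks under all 22 alternatives. In a window of 10 models on either side, chosen after the values were seen, 7 of 20 models were higher and 6 lower with age in BRFM1218, with a median of 0.09. That is near the 33% higher and 27.4% lower over all tested models, whose median was 0.06. TRAVEDRAFT_56328, 7 models beyond CCP1, fell by 1.14 on the log2 scale in BRFM1218 and rose by 1.22 in 1956-1252. The lignin peroxidase genes LiP1, LiP2 and LiP12 and the manganese peroxidase gene MnP2s lie further along the same scaffold, with 21, 23, 25 and 26 models between them and CCP1. These 4 were named after their values were seen, and all rose with age in BRFM1218, where 33% of tested models did: LiP1 by 1.09, LiP2 by 1.11, LiP12 by 1.06 and MnP2s by 1.47 on the log2 scale (adjusted p 1.97e-06 to 0.00235 in edgeR). The other models with a symbol on the scaffold lie on the opposite side of CCP1 and further off. MnP5s (0.67, edgeR adjusted p = 0.00736) and VP1 (1.79, adjusted p = 1.42e-05) rose, with 81 and 274 models between, and VP2, with 749 between, was the one that fell. The rise of MnP5s did not pass when only the BRFM1218 libraries were fitted (0.62, edgeR adjusted p = 0.111).

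**Figure D5:**
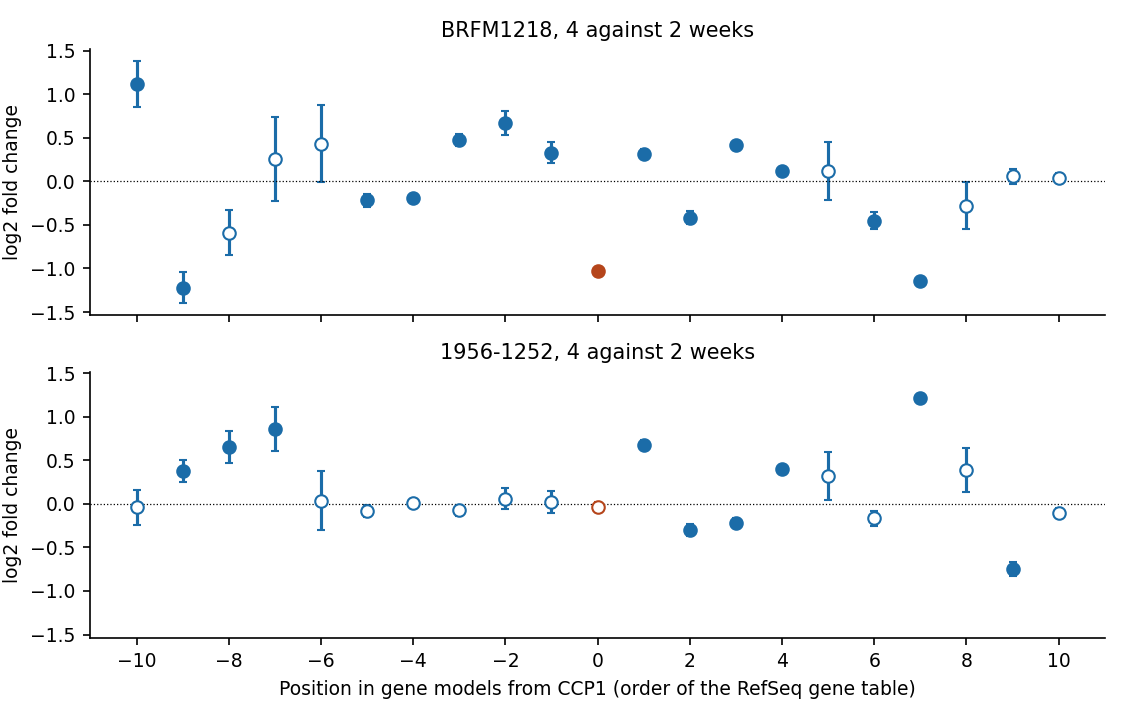
Log2 fold change with age (4 against 2 weeks, error bars SE) of CCP1 (red) and the 10 models on either side in the order of the gene table, in BRFM1218 (top) and 1956-1252 (bottom). Filled points have an adjusted p under 0.05. CCP1, at -1.03 in BRFM1218, lies between models next to it at 0.33 and 0.32, and it is at -0.04 in 1956-1252.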

How the data were processed

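RNA sequencing was done on 12 libraries of total RNA from separate cultures, per the labels. The authors deposited for each gene model, per the file headers, the count of unique reads, the count of all gene reads, and an RPKM value. Dividing all gene reads by the library total and by 1 length per model gave the deposited RPKM back, with 1471 bases for CCP1. Aligner, counting tool, genome build and use of strand are not given in the sources used here. Protein numbers were matched to the numbers in locus tags of the RefSeq table of assembly Trametes versicolor v1.0, which gave a tag to 14250 of 14296 models and a symbol to 42. The table was used for names and order of models only. Scaffolds were inferred from large drops in start position along it, so short scaffolds may be joined.

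Counts of all reads were tested in R 4.3.3 with edgeR 4.0.16: filterByExpr kept 12648 models and removed 1648, libraries were scaled by TMM, and quasi-likelihood tests used 1 mean per group over all 12 libraries with 8 residual degrees of freedom. Values of p were adjusted by Benjamini and Hochberg over all tested models, and an adjusted p under 0.05 is a call. SE is the log2 fold change divided by the root of F. Intervals on counts are exact Poisson 95% intervals and cover counting error only. The fit was also run on simulated counts with 200 changed genes and 1 mean over all groups for every other gene. That run does not bear on the scaling between strains, and no result here rests on it. Alternatives used limma 3.58.1 and DESeq2 1.42.0.

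CCP1, the lists by symbol and the rules were chosen with earlier results of these data known. The rule named CCP1, the 5 closest models, the 3 closest with a symbol and 3 neighbours on either side. Class II peroxidases lower with age in BRFM1218, genes above CCP1 in RPKM and other genes of the same scaffold were named after their values were seen. Planned lists by protein signature or protein similarity were not tested, and no protein or promoter sequence was used here.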

Additional observations from a re-analysis of the deposited data

Results flagged for a closer look

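The age change differed between the strains, by edgeR's test of that difference, in CCP1, in 4 of its 6 neighbours, in 8 of the class II peroxidase genes named above, in DyP1 and in TRAVEDRAFT_56328. The change in 1956-1252 minus that in BRFM1218, on the log2 scale, was 0.997 for CCP1, -0.55 for TRAVEDRAFT_56322, -0.60 for TRAVEDRAFT_43554, 0.36 for TRAVEDRAFT_113328, -0.63 for TRAVEDRAFT_141987, 0.98 for VP3at, 0.67 for MnP1s, -0.94 for LiP1, -0.85 for LiP2, -1.43 for MnP2s, -0.86 for MnP5s, -1.93 for VP1, 0.76 for VP2, 2.65 for DyP1 and 2.36 for TRAVEDRAFT_56328. VP2 was also among the models picked for a pattern like that of CCP1, and its value is a description. The other models picked so passed too, apart from MnP10s, and their values are likewise a description. TvLac2 was at 2.71 (edgeR adjusted p = 1.02e-09). The 5 closest models were at 0.60 to 1.17 (edgeR adjusted p 2.05e-08 to 1.84e-06). VP3at, VP2 and MnP1s fell in BRFM1218 and rose in 1956-1252, where CCP1 was level. For MnP1s neither call held throughout: the fall was lost without any of the 4 libraries named above. Its rise (0.33, edgeR adjusted p = 0.0264) was lost without replicate 2 or 3 of 1956-1252 at 2 weeks (0.34 and 0.19, adjusted p = 0.0547 and 0.139) or replicate 2 or 3 at 4 weeks (0.33 and 0.27, adjusted p = 0.0544 and 0.104). DyP1, TRAVEDRAFT_56328 and TvLac2 also fell in BRFM1218 and rose in 1956-1252. LiP1, LiP2, MnP2s, MnP5s and VP1 rose in BRFM1218 and did not pass in 1956-1252. LiP2 did pass there when only the 1956-1252 libraries were fitted (0.25, edgeR adjusted p = 0.031). The difference between strains in the age change of LiP2 (edgeR adjusted p = 0.0297) did not pass in limma on log2(RPKM + 1) or log2(RPKM + 0.1) (adjusted p 0.0796 and 0.0807). It also did not pass in edgeR without replicate 1 or 2 of BRFM1218 at 2 weeks (adjusted p 0.0655 and 0.0656), replicate 1 of that strain at 4 weeks (0.0826), replicate 2 of 1956-1252 at 2 weeks (0.0586) or replicate 1 or 3 of it at 4 weeks (0.0571 and 0.07). Over all tested models 52.9% passed this test. The class II genes, DyP1 and TRAVEDRAFT_56328 are a description here, since the age change in BRFM1218 is a term of the difference. VP3at, VP2, MnP1s and MnP10s were named for their fall there, and the others after their values were seen. MnP10s and LiP12, named above too, did not pass (edgeR adjusted p = 0.105 and 0.164). LiP12 did pass without BRFM1218 4-week replicate 3 (-0.80, edgeR adjusted p = 0.0463), and MnP10s without replicate 2 of that group (0.55, adjusted p = 0.0409). Of all 26 class II peroxidases, 5 passed with a positive and 11 with a negative difference, and 10 did not pass.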

How the results depend on the processing

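For CCP1 the age effect in BRFM1218, both strain differences and the interaction kept direction and call under all alternatives run (22, and 21 for the interaction, where fitting only the groups compared is the same fit). Their ranges were -1.08 to -1.01, -2.78 to -2.19, -1.77 to -1.17 and 0.95 to 1.04 on the log2 scale, those without 1 library -1.08 to -1.01, -2.78 to -2.69, -1.77 to -1.70 and 0.95 to 1.04. The age effect of CCP1 in 1956-1252 did not pass under any of 22 (edgeR, DESeq2 or limma adjusted p 0.211 to 0.835) and its sign turned with library size only (0.016) and in limma on log2(RPKM + 1) (0.017) and log2(RPKM + 0.1) (0.017); without 1 library it ran from -0.08 to -0.03. Counts of called models stayed within 1.5 times of those given. Of 2616 alternatives over 120 results of the other named models, 2520 kept direction and call. With library size only, log2(RPKM + 1) and log2(RPKM + 0.1), in that order, the sign turned for the age effect in 1956-1252 of TRAVEDRAFT_126149 (0.030, 0.027, 0.029) and MnP10s (0.020, 0.043, 0.048), for VP3at at 2 weeks between strains (0.18, 0.17, 0.18), and at 4 weeks between strains for TRAVEDRAFT_113328 (0.17, 0.17, 0.17), TRAVEDRAFT_141987 (0.12, 0.12, 0.12), LiP2 (0.068, 0.13, 0.15), VP1 (0.19, 0.14, 0.18) and MnP2s (0.32, 0.32, 0.36; with upper quartile factors 0.062). These settings leave out TMM. The turned values of TRAVEDRAFT_113328 passed as higher in 1956-1252 (adjusted p = 0.0107 in edgeR, 0.00743 and 0.00765 in limma). Those of TRAVEDRAFT_141987 passed in limma (adjusted p = 0.0367 and 0.036) and not in edgeR (0.0572). The other values turned by these settings did not pass. The age effect in 1956-1252 also turned for MnP10s without 1956-1252 2-week replicate 1 or 2 (0.052, 0.051; range without 1 library -0.22 to 0.052), and without 2-week replicate 3 or 4-week replicate 2 of that strain for TRAVEDRAFT_88199 (-0.053, -0.073; range -0.073 to 0.081) and MnP2s (-0.039, -0.035; range -0.039 to 0.096); none of these passed. LiP12 between strains at 4 weeks turned without BRFM1218 4-week replicate 3 (-0.022; range -0.022 to 0.31). With the replicate number as a block CCP1 was at -1.03, -0.04, -2.74, -1.74 and 0.997 with the same calls, and 7515, 6000, 10673, 10752 and 6527 models were called. Same-numbered libraries had deviations correlated over 0.1 in 2 of 18 pairs (-0.30 to 0.18), so the numbers were not taken to pair samples. With 3 libraries per group an exact test cannot go below p = 0.1.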
